A study of Mus musculus with 9 samples.

Results

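The regions described here were accessible in late reprogramming cells and in finished iPSCs and were called at no earlier stage of the same time course. They were chosen by the peak calls themselves: the accessible regions of the 7 time-course libraries were merged wherever they overlapped by at least 1 bp on chromosomes 1 to 19, and a merged region was kept where D16S+ and iPSCs each contributed a region and D0, D3, D6T-, D9T- and D12S+ contributed none. This left 3285 of 204843 merged regions (1.60%). The presence calls and summit heights in the time course are therefore a description of what was selected on, and no test was made on them.

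All cells derived from mouse embryonic fibroblasts (MEFs) that carried an Oct4-GFP reporter, and reprogramming was induced with retroviruses carrying Oct4, Sox2, Klf4 and c-Myc (OSKM). D0 cells were MEFs on day 0 and D3 cells were collected on day 3 after induction, both unsorted. D6T- and D9T- were sorted as Thy-1-negative on day 6 and day 9, and D12S+ and D16S+ as SSEA-1-positive on day 12 and day 16, so the sort changed between D9T- and D12S+, and the iPSCs were fully reprogrammed and unsorted. Day 6 cells treated with an siRNA against the histone variant H3.3 (D6 siH3.3) or a non-targeting siRNA (D6 siNT) were assayed as well. Their labels give them as Thy-1-negative, while the sample list of the study names no sort for them. There was 1 library per condition, so no difference between conditions has a replicate check, and the day, the sort and the library cannot be told apart.

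ATAC-Seq inserts sequencing adapters with a transposase where DNA is not wrapped tightly in nucleosomes, so accessible promoters and enhancers collect more tags. In mouse pluripotent cells such enhancers are typically bound together by Oct4, Sox2, Nanog, Esrrb and Klf factors, and Oct4 and Sox2 often sit side by side on a composite motif. Fibroblast enhancers are instead rich in AP-1 sites, and reprogramming is known to close many of them while pluripotency enhancers open in steps.

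The libraries held 13213117 (D9T-) to 31714845 tags (D0), with 21172835 in D16S+ and 26580724 in iPSCs. Of 10 pluripotency markers, all 10 had a region in the promoter or genebody in D12S+, D16S+ and iPSCs, against 6 in D0 and 4 in D9T-. Of 10 fibroblast markers, 9 still had a region in D16S+ and 7 in iPSCs, with a summed summit height of 15.5 and 8.01 CPM (summit pileup scaled to 1000000 sequenced tags) against 10.8 in D0 and 55.0 in D6T-, so these calls alone did not separate the stages. Tags from the viral Oct4 and Sox2 cDNA may fall on exons of those genes. Over the 8 other pluripotency markers the summed height was 10.3 CPM in D0, 12.3 in D3, 13.1 in D6T- and 1.67 in D9T-. It was 18.0 in D12S+, 25.6 in D16S+ and 28.9 in iPSCs. These 8 genes held 5 of the regions described here, so the D16S+ and iPSC sums include regions chosen for being called there.

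The sequences of the 5 highest regions that held the composite OCT4-SOX2 motif (letters TTGTNATGC) are shown first, since they show the motif in place and, for 4 of the 5, sequence shared with one another. Each is the 200 bp window around the strongest summit, on the plus strand of mm9 (NCBIM37), with the motif match in capitals.

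The window at chr5:9755824-9756023 was intergenic, 30.6 kb upstream of Grm3, and its summit stood at 1.09 CPM in D16S+ and 1.09 CPM in iPSCs.
Grm3: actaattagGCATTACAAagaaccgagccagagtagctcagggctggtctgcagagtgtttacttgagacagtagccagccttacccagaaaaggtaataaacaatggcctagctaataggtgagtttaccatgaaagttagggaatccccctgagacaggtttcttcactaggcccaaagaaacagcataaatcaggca
The window at chr9:76249808-76250007 was intergenic, 78.6 kb upstream of Hcrtr2, at 1.13 CPM in D16S+ and 1.05 CPM in iPSCs.
Hcrtr2: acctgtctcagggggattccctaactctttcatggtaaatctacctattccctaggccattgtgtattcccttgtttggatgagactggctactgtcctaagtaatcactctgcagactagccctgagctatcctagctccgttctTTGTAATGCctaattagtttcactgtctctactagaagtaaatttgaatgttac
The window at chr5:5698918-5699117 was intergenic, 4.44 kb upstream of Steap2, at 0.992 CPM in D16S+ and 1.24 CPM in iPSCs.
Steap2: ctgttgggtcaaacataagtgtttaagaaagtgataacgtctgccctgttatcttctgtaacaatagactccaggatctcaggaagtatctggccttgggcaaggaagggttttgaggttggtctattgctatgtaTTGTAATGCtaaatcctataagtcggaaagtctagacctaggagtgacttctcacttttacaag
The window at chr1:22473584-22473783 lay in an intron of Rims1, at 0.945 CPM in D16S+ and 1.43 CPM in iPSCs.
Rims1: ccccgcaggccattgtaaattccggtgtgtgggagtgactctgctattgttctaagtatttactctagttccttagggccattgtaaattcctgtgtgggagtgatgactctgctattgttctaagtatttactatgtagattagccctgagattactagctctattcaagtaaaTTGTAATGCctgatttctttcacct
The window at chr1:141309070-141309269 was intergenic, 9.78 kb upstream of Zbtb41, at 0.945 CPM in D16S+ and 1.88 CPM in iPSCs.
Zbtb41: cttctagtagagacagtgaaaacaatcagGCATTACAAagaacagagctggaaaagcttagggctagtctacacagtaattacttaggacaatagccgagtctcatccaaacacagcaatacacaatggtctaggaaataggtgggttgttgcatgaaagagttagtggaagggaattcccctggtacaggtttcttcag

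Of these 5 windows, those near Grm3, Hcrtr2, Rims1 and Zbtb41 could be aligned with one another over most of their length. In local alignments the Grm3 and Hcrtr2 windows matched on opposite strands at 87.3% of 165 aligned columns, Hcrtr2 and Zbtb41 at 83.3% of 192, Grm3 and Zbtb41 at 75.6% of 176, and Rims1 and Zbtb41 at 77.9% of 136. Hcrtr2 and Rims1 matched at 74.8% of 143 columns, and Grm3 and Rims1 were the least alike of the 4, at 64.0% of 189. The Steap2 window aligned with none of the other 4 over more than 66 columns, at an identity of 63.9% to 85.7%. The Grm3 and Hcrtr2 windows had a median of 7 and 6 exact genome copies of their 24-base words and the other 3 windows a median of 1, so exact copies undercount such related sequences, and all 5 counted as not repeated by the limit used below.

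A further window is shown for a second motif. Among regions that held the ESRRB motif (CAAGGTCA) and were not repeated, those nearest to Triml2 and Alcam were the highest (1.04 CPM in D16S+ and 1.20 in iPSCs, in both), and the one nearest to Alcam, at 1210 kb from its TSS, had 2 overlapping matches on the minus strand within chr16:53659537-53659736.
Alcam: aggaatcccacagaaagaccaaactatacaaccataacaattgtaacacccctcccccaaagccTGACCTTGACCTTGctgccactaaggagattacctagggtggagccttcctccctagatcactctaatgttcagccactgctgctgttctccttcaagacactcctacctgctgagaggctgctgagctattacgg

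The composite OCT4-SOX2 motif was more frequent in these windows than in accessible regions at large. It was found, on either strand, in 78 of 3285 windows (2.37%, 95% Wilson interval 1.91 to 2.95), against 0.928% of all merged regions, 1.09% of regions of iPSCs alone and 1.02% of regions of D16S+ alone. Regions that opened 1 stage earlier, called in D12S+, D16S+ and iPSCs and nowhere before, carried it in 4.03%, above the interval of the D16S+ and iPSC regions. The octamer ATGCAAAT, bound by Oct4 and related POU factors, followed with 3.59% against 1.68% of all regions, and 10 windows held both it and the composite motif. The octamer was about as frequent in regions of D16S+ alone (3.47%). It was at 4.45% in D12S+ onwards and 1.98% in iPSCs alone. The classes also differed in height. The median strongest summit was 0.715 CPM here, 1.02 in D12S+ onwards, 0.489 in iPSCs alone, 0.614 in D16S+ alone and 0.695 over all regions. Motif shares at matched height were not tested.

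The ESRRB motif was present in 3.71% of the windows against 1.48% of all regions, and the KLF motif GGGNGTGG in 14.3% against 10.1%. ESRRB was about as frequent in regions of iPSCs alone (3.60%) and less so in those of D16S+ alone (1.72%). KLF was about as frequent in iPSCs alone (13.9%) and D12S+ onwards (15.4%), and less so in D16S+ alone (10.4%). The SOX motif CATTGTT did not stand apart (3.77% against 4.01%). At least 1 of these 5 motifs was found in 25.5% of the windows and 17.3% of all regions.

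The AP-1 motif TGANTCA was found in 4.63% of the windows (3.96 to 5.40) and in 24.2% of all regions. The same low level held for D12S+ onwards (5.65%), iPSCs alone (5.33%) and D16S+ alone (5.42%). The RUNX motif TGTGGTT was at 2.62% against 5.89%, and CTCF (CNAGNGGGC) at 3.11% against 4.17%. These other classes were below all regions as well. In D12S+ onwards, iPSCs alone and D16S+ alone, RUNX was at 2.31%, 3.83% and 3.08%, and CTCF at 2.74%, 3.53% and 2.83%. Of the 22 motifs searched, none was found in 38.0% of the windows, close to the 37.7% of all regions.

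**Figure D1:**
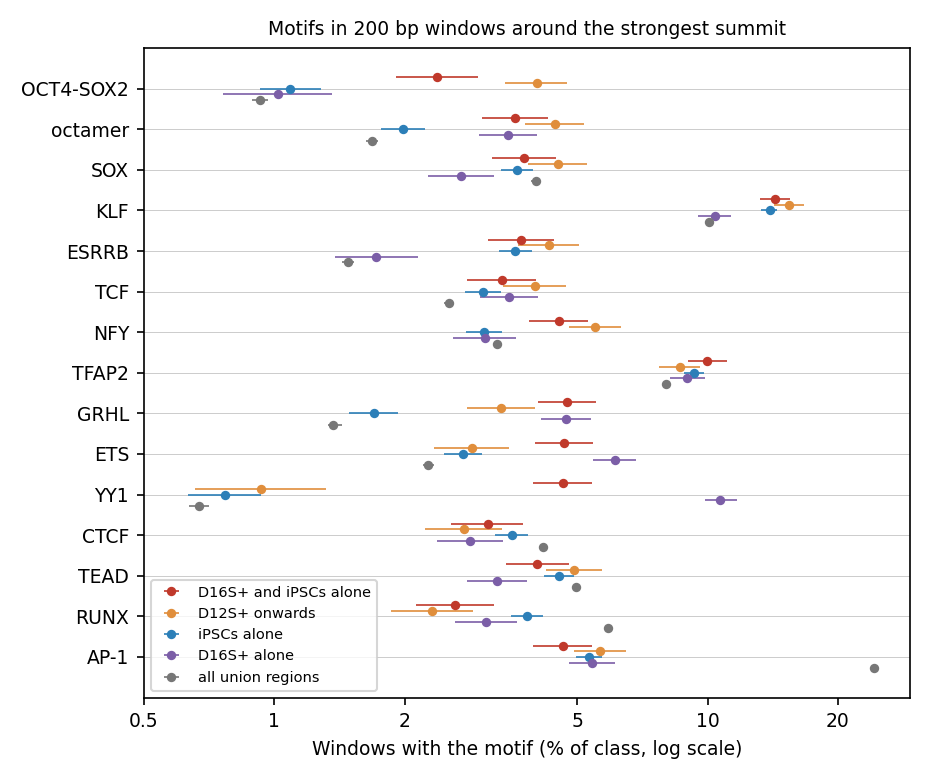
Percent of 200 bp windows that held each motif (log scale) in regions of D16S+ and iPSCs alone (red), D12S+ onwards (orange), iPSCs alone (blue), D16S+ alone (purple) and all merged regions (grey), with 95% Wilson intervals that cover counting error only. OCT4-SOX2 stood at 2.37% in the red class against 0.928% in grey, and AP-1 at 4.63% against 24.2%.

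Motifs of YY1, a zinc finger factor, of the Grainyhead-like (GRHL) factors of epithelia and of ETS factors were also frequent, at 4.63%, 4.75% and 4.66% of the windows against 0.670%, 1.37% and 2.27% of all regions. GRHL was about as frequent in D16S+ alone (4.71%), and at 3.34% in D12S+ onwards and 1.70% in iPSCs alone. ETS was at 6.10% in D16S+ alone, 2.86% in D12S+ onwards and 2.73% in iPSCs alone. The YY1 motif AAGATGGCG reached 10.7% in regions of D16S+ alone and 0.768% in those of iPSCs alone. Of the 152 YY1 windows, 135 were repeated sequence. A window was called repeated where its 24-base words had a median of 10 or more exact copies on chromosomes 1 to 19, a limit set after these motif shares were seen.

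Repeated windows made up 482 of the 3285 (14.7%, 13.5 to 15.9), against 3.25% of all merged regions, 6.49% of the D12S+ onwards class, 4.14% of iPSCs alone and 26.9% of D16S+ alone. They held the YY1 motif in 28.0%, the GRHL motif AACCNGTT in 23.2% and the ETS motif CCGGAAG in 10.6%. In the 2803 windows that were not repeated the shares were 0.606%, 1.57% and 3.64%, against 0.258%, 1.25% and 2.14% of all non-repeated regions. OCT4-SOX2 was found in 2.43% of the non-repeated windows against 0.923%, and ESRRB in 4.00% against 1.49%. Diverged copies, such as the 4 related OCT4-SOX2 windows shown above, are among the non-repeated windows here, and how many more there are was not tested.

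**Figure D2:**
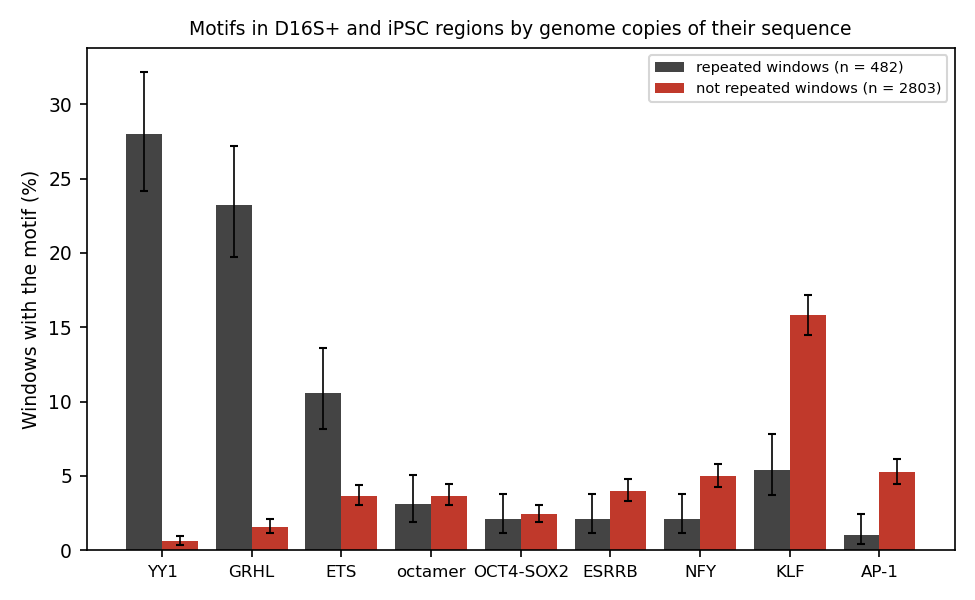
Percent of the D16S+ and iPSC windows that held each motif, for 482 windows of repeated sequence (dark grey) and 2803 others (red), with 95% Wilson intervals. YY1 was at 28.0% and 0.606% and GRHL at 23.2% and 1.57% in these groups, while OCT4-SOX2 was at 2.07% and 2.43%.

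The repeated windows were richer in G and C (median 62.5% against 52.0%), lay farther from genes (median 48501 bp from a TSS against 14608 bp) and were intergenic in 76.6% against 48.1%. Their median log2 ratio of iPSC to D16S+ height was -0.24 against -0.11. Ambiguously mapped reads had been removed, so only copies distinct enough to map are seen, and the part of mappability in these counts was not tested.

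Most of the regions lay away from promoters. Midpoints fell within 3 kb upstream of a TSS in 9.92% (8.95 to 11.0) against 13.6% of all regions, in introns in 32.5% against 40.1%, in exons in 5.36% against 7.50%, and between genes in 52.2% against 38.9%. The median distance to the nearest TSS was 17519 bp against 12887 bp, and 14.8% lay over 100 kb from any TSS against 10.3%. The D12S+ onwards class was placed much the same, with 50.5% intergenic (48.8 to 52.2) and 11.4% in promoters (10.4 to 12.5). The regions of iPSCs alone were intergenic less often (38.0%) and those of D16S+ alone more often (55.1%). Without the repeated windows, 11.2% of the regions were in promoters and 48.1% were intergenic.

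**Figure D3:**
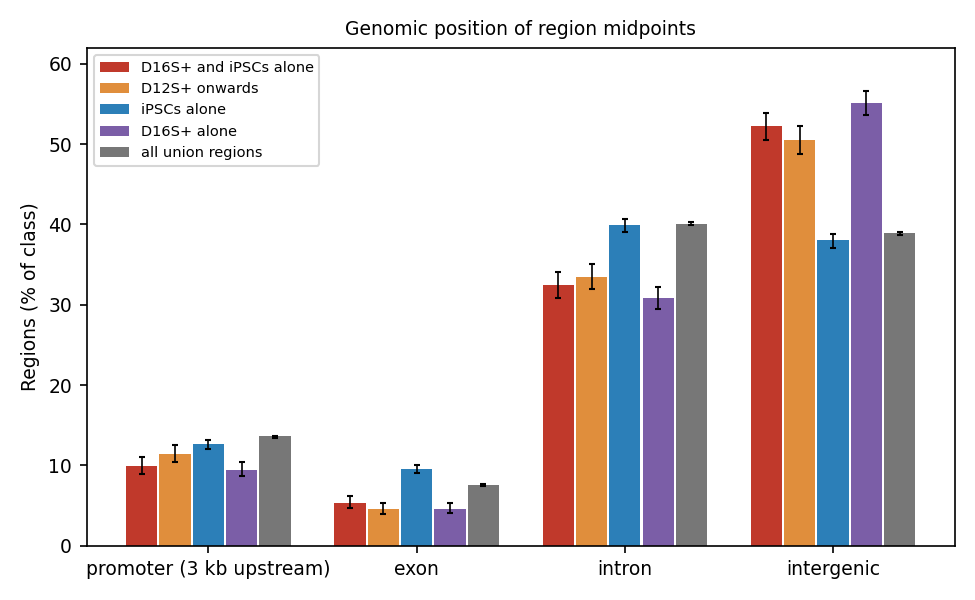
Percent of regions whose midpoint lay in a promoter, exon, intron or between genes, by class, with 95% Wilson intervals. The regions of D16S+ and iPSCs alone (red) were intergenic in 52.2% against 38.9% of all regions (grey) and 50.5% of D12S+ onwards (orange).

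The OCT4-SOX2 windows were more distal than the windows without that motif. Of the 78, 3.85% were in promoters and the median distance to a TSS was 33297 bp, against 10.1% and 17311 bp of the others, and their median GC content was 43.2% against 53.0%. GRHL windows were more distal still, with 1.92% in promoters and a median distance of 58145 bp. However, 112 of these 156 windows were repeated sequence, which lay far from genes in general. KLF windows went the other way, with 12.8% in promoters and a median distance of 13992 bp. The regions lay on all 19 chromosomes at 0.887 to 1.86 per Mb, or 1.13% to 2.16% of the merged regions of a chromosome. Of them, 8.71% lay within 10 kb of another one. This share was 10.8% in D12S+ onwards (3327 regions), 11.8% in D16S+ alone (4412) and 34.6% in iPSCs alone (13273), and class size was not matched.

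Median summits in both libraries were lower than those of the D12S+ onwards class. The strongest time-course summit of a region had a median of 0.715 CPM, near the 0.695 of all merged regions. It was 0.489 in iPSCs alone and 0.614 in D16S+ alone. Heights ranged from 0.425 to 1.84 CPM in D16S+ (median 0.661) and from 0.376 to 2.14 in iPSCs (median 0.602). The D12S+ onwards class stood at medians of 0.897 and 0.752. The 2 heights were weakly related across regions (Pearson's r of log2 CPM 0.260, Spearman's rho 0.230, 3285 regions of 2 libraries, whose low tag counts limit both). The 2 summits lay a median of 54 bp apart, and within 100 bp in 73.8% of the regions.

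**Figure D4:**
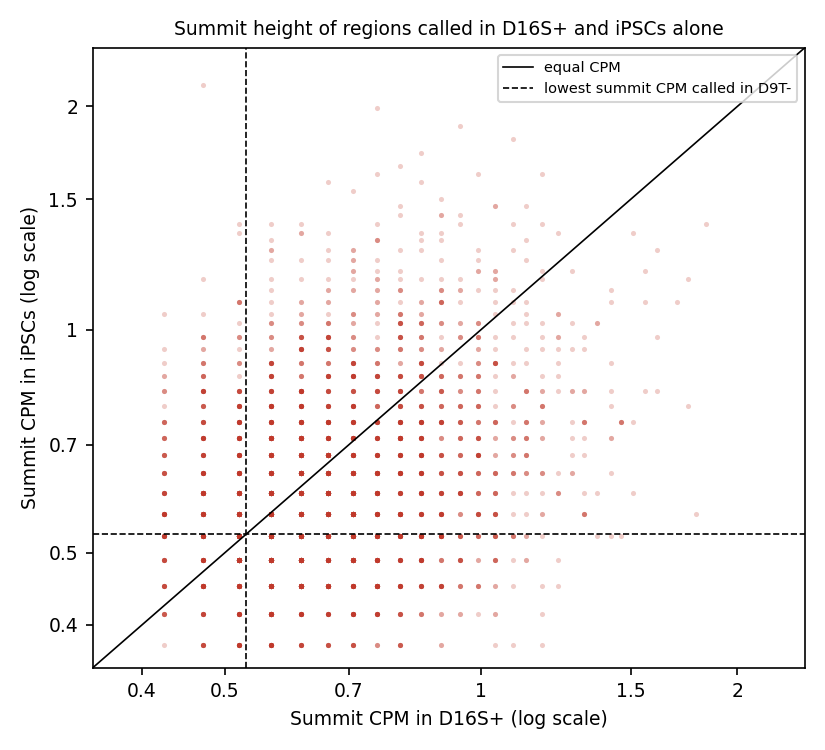
Summit height in D16S+ and iPSCs of the 3285 regions, in CPM (log scales), with the line of equal height and, dashed, the lowest summit called in D9T- (0.530 CPM). In 1820 regions both heights were at or above that limit, and the grid reflects whole tag counts.

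Depth bears on the calls of absence. The lowest summit called was 0.347 CPM in D0, 0.331 in D3 and 0.374 in D6T-, at or below every height here, but 0.454 in D12S+ and 0.530 in D9T-. Both heights reached the D12S+ limit in 83.5% of the regions and the D9T- limit in 55.4%, so absence from D9T- was not detectable at this depth for the rest. The lowest summit called is not a height above which every region would be called. Absence is therefore uncertain for regions just above these limits too. Leaving D9T- out of the rule added 18 regions, which D9T- had called, so this does not bear on regions too low for D9T- to call. Among the 1820 regions that reached every limit, the OCT4-SOX2 share was 3.02%.

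Median heights in iPSCs and D16S+ were close. The median log2 ratio of iPSCs over D16S+ was -0.12, against -0.47 over all 32841 regions present in both and -0.28 in the D12S+ onwards class. With the median of all shared regions subtracted, the sign turned to 0.35. At least 2-fold higher in iPSCs were 35 regions (1.07%, background 0.390%), and at least 2-fold higher in D16S+ were 77 (2.34%, background 19.7%). The heights are those of regions the rule had required to be called in both libraries. The lowest summit called was 0.376 CPM in iPSCs and 0.425 in D16S+. A region with both heights at or below their medians (0.661 CPM in D16S+, 0.602 in iPSCs) could therefore not differ 2-fold. The 2-fold shares are thus bounded by the call limits, and regions matched for height were not compared.

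The largest ratio was at an intergenic region whose nearest protein-coding gene was Amy2a5, with 10 tags over the summit in D16S+ and 57 in iPSCs (log2 ratio 2.18). Regions near Lsamp (11 and 37 tags) and Ccnh (16 and 53 tags) came next. The lowest ratios were near Kcng3 (38 tags in D16S+ and 15 in iPSCs, -1.67), in an intron of Ttc29 (25 and 10 tags) and near Depdc1a (23 and 10 tags).

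At the edge of the rule, presence depended on a few bases. A region near Ywhag (0.708 CPM in D16S+, 0.790 in iPSCs) lay 1 bp from a D6T- region and was kept, while one near Fkbp1a (0.756 and 0.640 CPM) overlapped a D6T- region by 3 bp and was left out. A region of an earlier library lay within 500 bp of 10.9% of the kept regions, and the median gap was 4240 bp.

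The 10 highest regions, ranked by the lower of the 2 heights, did not lie in or nearest to a gene of the pluripotency lists. The first was intergenic, 69.9 kb from the TSS of Ythdc2, with 39 tags in D16S+ and 37 in iPSCs (1.84 and 1.39 CPM). The second was near Rgs17 (1.51 and 1.35 CPM), and the promoter of Txnl1 followed (1.61 and 1.28 CPM). The remainder of the first 10 lay near Anxa3, Gm6280 and Xkr8, in the promoter of Aim2, in introns of Efhb and Gm5155 and in an exon of Gtf2a1, all between 1.17 and 1.62 CPM.

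Among promoters of protein-coding genes, after Txnl1 and Aim2, the highest were those of Gm6901 (1.13 and 1.47 CPM), Triml2 (1.04 and 1.20), Plekhg3 (0.945 and 1.17), Ppap2a (0.945 and 1.09), Pramef12 (0.945 and 1.02), Trim34a (1.42 and 0.903), Spic (0.897 and 1.32) and Dppa5a (0.945 and 0.865). Dppa5a encodes a small RNA-binding protein typical of pluripotent cells. The Triml2 window held an ESRRB and an ETS match, and the Spic window an octamer.

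Pluripotency genes had such regions more often than genes at large, but most had earlier regions too. A region lay in the promoter or genebody of 10 of 28 genes of the naive pluripotency list (35.7%). It was 10 of 29 for late pluripotency markers (34.5%), against 1285 of 21418 protein-coding genes (6.00%). The lists share genes and are not exclusive to a state. Of the 10 in the naive list, Otx2 was also listed as primed epiblast, Jarid2 as chromatin and Tcf7l1 as signalling. Of the 12 lists, 11 lay above the share of all genes, trophoblast (21.1%) and neuroectoderm genes (14.3%) among them, and gene length was not matched. Counting genes that were nearest within 100 kb, it was 16 of 28 and 12 of 29, against 10.8%.

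Esrrb, a nuclear receptor of the naive state, had 3 of them: an exonic one 101 bp from a TSS at 1.04 CPM in D16S+ and 0.865 in iPSCs, and 2 intronic ones at 0.614 and 0.828 and at 0.520 and 0.640. Esrrb had 18 regions in D0 already, 1 in D9T-, 10 in D16S+ and 19 in iPSCs. Zfp42, also called Rex1, had none from D0 to D9T-, 1 in D12S+, 2 in D16S+ and 4 in iPSCs, and its intronic late region stood at 0.708 and 0.978 CPM.

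Tcl1, a co-activator of Akt signalling, had no region before D16S+, and its promoter region stood at 0.661 and 1.02 CPM. Near Sox2, 2 intergenic regions lay 85.0 and 95.2 kb downstream of the TSS at 0.897 and 0.677 and at 0.756 and 0.828 CPM. Single regions lay nearest to Klf4 (0.472 and 0.527 CPM), Klf5 (0.945 and 0.752), Prdm14 (1.09 and 0.640) and Mycn (0.661 and 0.677). Nr5a2 had a promoter region at 0.803 and 0.752 CPM, and Tfcp2l1, listed as Tcfcp2l1 in the annotation, an intronic one at 0.614 and 0.903.

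The Dppa genes are named for their expression in developing pluripotent cells. Dppa2 and Dppa4 had no region of any library before D16S+. The Dppa2 region lay in an exon at 44 bp from a TSS, with 14 tags in D16S+ and 17 in iPSCs (0.661 and 0.640 CPM), and the Dppa4 promoter region held 12 and 16 tags (0.567 and 0.602 CPM). Dppa3 had an intronic region at 0.472 and 0.527 CPM. These heights are near the lowest called, so absence before D16S+ covers only what the earlier libraries could call.

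Slc2a3, a glucose transporter, had 3 regions, and Morc1, needed for silencing of transposons in the male germline, had 2. Dnmt3l, the cofactor of the de novo DNA methyltransferases, had a promoter region at 0.708 and 0.752 CPM. Lin28a, Trim71 and Mael had 1 region each.

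**Figure D5:**
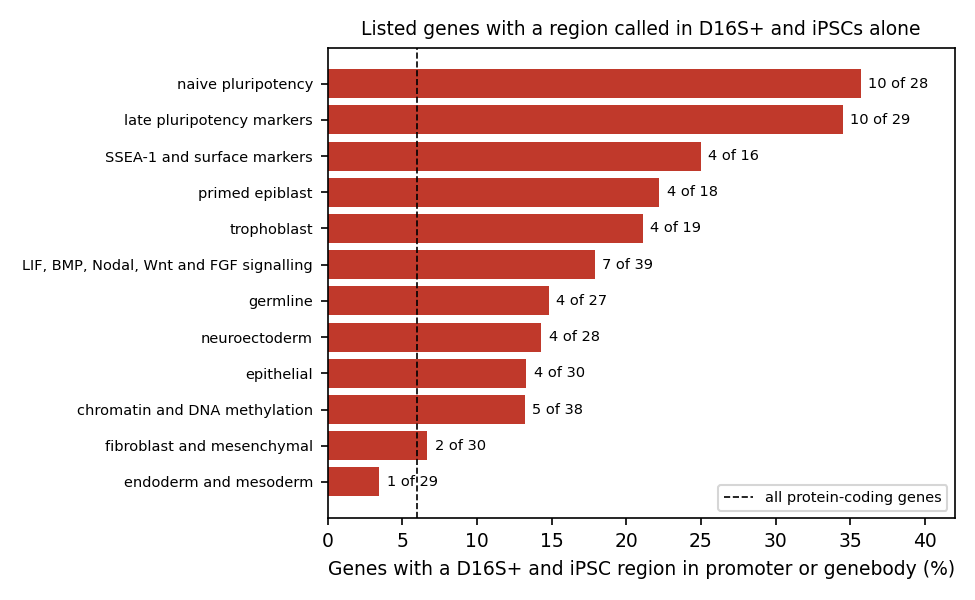
Percent of the genes of each list with a region of D16S+ and iPSCs alone in the promoter or genebody, with the counts at the bars. The dashed line is the 6.00% of all protein-coding genes. Naive pluripotency (10 of 28) and late pluripotency markers (10 of 29) stood highest and endoderm and mesoderm (1 of 29) lowest.

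Of 39 genes of LIF, BMP, Nodal, Wnt and FGF signalling, 7 held a region and 10 more were only the nearest gene within 100 kb. Of 29 endoderm and mesoderm genes 1 held a region and 6 more were only the nearest, and of the 21418 protein-coding genes these numbers were 1285 and 1036. Il6st, which encodes the LIF receptor subunit gp130, had a region 12.4 kb upstream at 0.850 and 0.903 CPM that held an octamer and an ESRRB match. The Bmp4 promoter region stood at 0.567 and 0.640 CPM, and the region 5.45 kb upstream of Skil, an inhibitor of Smad signalling, at 0.803 and 0.414 CPM with a composite motif. The mitogen-activated kinase phosphatase gene Dusp6 had 2 regions, the nearer at 0.992 and 0.677 CPM.

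Of 16 SSEA-1 and surface marker genes 4 held a region. Fut9, the fucosyltransferase that makes the SSEA-1 epitope on which D12S+ and D16S+ were sorted, had an intronic region at 0.756 CPM in D16S+ and 1.13 in iPSCs, and Kit, Alpl and Pdpn had 1 each. These 4 genes had other regions in D0 already, 3 in Fut9, 2 in Kit, 7 in Alpl and 3 in Pdpn. Of 30 epithelial genes 4 held one, among them the promoters of Prss8, a membrane serine protease (0.803 and 0.752 CPM), and of Cldn7, a tight junction claudin (1.28 and 0.640 CPM). Germline genes counted 4 of 27, primed epiblast genes 4 of 18, chromatin and DNA methylation genes 5 of 38, trophoblast genes 4 of 19 and neuroectoderm genes 4 of 28. Of 30 fibroblast and mesenchymal genes 2 held one, Fbn1 and Lum, and the Lum window was repeated.

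At the level of whole genes, 47 protein-coding genes had no other region of any time-course library. They were among 1285 genes with such a region and 17826 with any region, and the other classes were not counted this way. The 47 genes were led by Gm6901 (1.13 CPM as the lower height), Mmp20 (1.04) and Spic (0.897). Among the genes with most regions, Gm20388, a model of 4430 kb that spans many other genes, had 16 among 1270 other regions, and Fbxo36 and Lrrc4c had 5 each, followed by Cntnap2, Macrod2, Pde4d, Rtn4rl1, Sntg1 and Tspan5 with 4 each. Gene length ranged from 60.6 kb (Fbxo36) and 74.0 kb (Rtn4rl1) to 2240 kb (Cntnap2) among those other than Gm20388. The 5 regions of Fbxo36 lay within 60.6 kb, from 0.567 to 0.945 CPM in D16S+, while 2 of the 5 in Lrrc4c were repeated windows.

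The siRNA libraries were not used in the choice. A region of D6 siNT overlapped 14 of the 3285 (0.426%, 0.254 to 0.714) and one of D6 siH3.3 overlapped 18 (0.548%, 0.347 to 0.865), against 20.1% and 20.4% of all merged regions. Of the 78112 merged regions without a D6T- region, 0.687% and 0.773% overlapped. With 1 library each, the difference between D6 siH3.3 and D6 siNT has no replicate check, and the intervals cover counting error over regions only. Both libraries overlapped 4 of the regions, D6 siNT alone 10 and D6 siH3.3 alone 14. The region near Tcfap2c, for instance, had 10 tags in D6 siNT and 14 in D6 siH3.3.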

How the data were processed

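ATAC-Seq was analysed for 9 libraries, 1 per condition. The study mapped reads to mm9, removed duplicates with Picard and left out mitochondrial and ambiguously mapped reads; STAR is also named in the submitters' processing notes. The deposited tables are MACS2 2.1.0.20151222 calls per library without control or local background, at a q cutoff of 0.05. Per the file headers, the pileup signal counts tags over the summit, the fold enrichment is a ratio to the genome background, and −log10 of the q-value is given. Tags of 51 bp were extended to 200 bp, which limits how finely a summit is placed. Depth was 13213117 to 31714845 tags, and intervals cover counting error only.

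Summit pileup was divided by total tags to give CPM. Regions of 7 libraries were merged and classed with Python 3.11.15 scripts, annotated with GENCODE vM1 on NCBIM37, and searched on both strands for 22 motifs in 200 bp windows around the strongest summit. Listed symbols were matched to older annotation names through RefSeq. Methods were tested on simulated data. The members, lists and motifs were chosen with earlier results of these data known. Named regions were the 10 highest by the lower CPM, the 10 highest promoters, listed genes, the 5 genes with most regions, the 3 highest and lowest ratios and the 5 highest with the OCT4-SOX2 motif. Besides the 6 sequences printed, 1 other window sequence is not reported here. Alternatives are given below.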

Additional observations from a re-analysis of the deposited data

How the results depend on the processing

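Of 72 recomputed values over 8 results, 41 stayed within the counting interval (for the 2 counts, within 1.5 times), 30 moved and 1 turned its sign. The number of regions fell to 1718 with the stronger 50% of peaks of each library, and to 1820 among regions at or above the lowest summit CPM of each other library. Promoter share became 13.8% with the stronger peaks, 16.0% with equal numbers of regions per library, 8.57% with no other region within 500 bp, 11.2% without repeated windows, 6.30% for a promoter of 1 kb upstream and 100 bp downstream, and 7.52% for protein-coding genes. The median TSS distance became 15184, 11921, 19446 and 14608 bp in the first 4 of these, 19348 bp at or above the limits and 26923 bp for protein-coding genes. The median log2 ratio was -0.33 with the stronger peaks, -0.16 with equal numbers, -0.03 at or above the limits, -0.04 for fold enrichment and 0.35 after subtraction of the median of shared regions. D6 siNT overlap was 2.29% with equal numbers. D6 siH3.3 overlap was 0.291% (stronger peaks), 2.09% (equal numbers), 0.342% (500 bp) and 0.275% (at or above the limits). The OCT4-SOX2 share was 3.14% with stronger peaks and 3.02% at or above the limits; it was 4.14% in 400 bp windows (1.56% of all regions) and 4.08% in whole regions (1.70%). Genes with no other region numbered 162 with equal numbers, 20 at or above the limits and 97 for genes of all types. The limits and the repeated windows were chosen as alternatives after seeing the data, and the cause was not tested. No paired analysis was possible because each condition had 1 library.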
